A study of Mus musculus with 9 samples.

Results

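The comparison described here set cells transduced with L-Myc against the untransduced cells they came from. It was chosen by the sample labels alone and takes 5 of the 9 arrays of the series, 2 of L-Myc transduced cells and 3 of preSC. The preSC are cultured mouse cells that the labels call preneoplastic neuroendocrine cells of the lung. They came from lungs of mice with conditional Rb, p53 and p130 alleles (genotype Rb/p53/p130) that had received Adeno-Cre, an adenovirus carrying the Cre recombinase, on a mixed background of C57BL/6 and 129/Sv. Both groups carry that genotype and were grown in RPMI1640 with bovine growth serum. The L-Myc cells are preSC infected with a retrovirus that encodes L-Myc, and the labels say that they had undergone transformation, so the comparison holds the virus, the transgene and the transformation together. The other 4 arrays are 2 of preSC transduced with C-Myc and 2 with N-Myc, and serve here only to place the L-Myc values. The ages of the mice, and how many cultures or clones the arrays stand for, are not stated in the labels. The series calls the replicates biological. The p-values below measure the spread between these arrays and count each array as independent.

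L-Myc, the product of Mycl, is one of 3 MYC transcription factors, beside c-Myc (Myc) and N-Myc (Mycn). They bind DNA as a dimer with MAX, most tightly at an E-box with the letters CACGTG, and are best known for raising genes of ribosome production, protein folding, mitochondria and metabolism. Small cell lung cancer is a neuroendocrine tumour in which loss of RB and p53 is the rule and in which one of the MYC genes is often amplified; MYCL was first found there. Pulmonary neuroendocrine cells are sensory epithelial cells of the airway that store peptides in dense granules.

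The E-box gives a concrete view of what a MYC target can look like in sequence. The letters CACGTG, which read the same on both strands, occurred in 7.15% of the 32851 RefSeq promoter windows of the mouse (GRCm38.p6), each reaching from 250 bases before to 50 bases after a transcript start. Among genes with a window, they occurred in 1196 of the 10442 genes tested (11.5%), in 80 of the 590 that were higher in L-Myc cells (13.6%) and in 82 of the 834 that were lower (9.83%). Genes with more than 1 start have more than 1 window, with a mean of 1.25 windows in the higher and 1.32 in the lower genes. In the 3 lists of ribosome assembly genes used below, 20 of 93 genes held it (21.5%). In other lists the share was 7.58% (mitochondrial ribosome), 8.57% (proteasome), 7.14% (polyamine, serine, glutamine and proline metabolism) and 15.4% (epithelial junction and identity). Of 25 genes that rose and were considered for display, 23 had a window and only 5 of them held the letters. The 5 stretches that follow are from these 5, all ribosome assembly genes, and are shown because each holds the letters. The letters are in capitals. Each stretch is 30 bases, written 5′ to 3′ on the strand of its gene, from RefSeq, GRCm38.p6.
Nol11, chr11:107189407-107189436, minus strand: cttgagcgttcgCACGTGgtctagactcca
Pes1, chr11:3963965-3963994, plus strand: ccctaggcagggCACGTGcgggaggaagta
Pno1, chr11:17211540-17211569, minus strand: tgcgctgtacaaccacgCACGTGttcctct
Wdr43, chr17:71616220-71616249, plus strand: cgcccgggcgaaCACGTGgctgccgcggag
Utp4, chr8:106893643-106893672, plus strand: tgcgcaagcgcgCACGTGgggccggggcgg
Counted from the transcript start, the first capital stood at position -43 in Nol11, 3 in Pes1, 38 in Pno1, 18 in Wdr43 and 16 in Utp4. A match is a description of letters and does not show that a MYC protein was bound there.

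Values throughout are log2 intensities of Affymetrix mouse genome arrays, so a difference of 1 is a 2-fold difference. The number of arrays limits the precision, and the median standard error of a difference between the groups was 0.195. A gene stands for its brightest probe set unless another is named, and 12976 of the 18193 genes on the array were bright enough to be tested. The call rule was an adjusted p under 0.05 from limma, fitted on all 9 arrays and adjusted over all 12976 genes.

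The 5 arrays did not fall simply into their groups. The arrays of preSC 1 and preSC 2 differed by over 2-fold at only 47 of 45101 probe sets (Pearson r = 0.9954 across probe sets), whereas preSC 3 differed from them at 1909 and 1807. L-Myc 1 and L-Myc 2 differed at 2252 probe sets, while L-Myc 2 and the array labelled C-Myc 2 differed at 41 (r = 0.9965). Whether such close arrays are separate cultures is not stated. The p-values count them as separate and could be too small if they are not. The way preSC 3 stood apart from preSC 1 and 2 resembled the way L-Myc 2 stood apart from L-Myc 1. Of 1127 tested genes over 2-fold apart between the L-Myc arrays, 586 were also over 2-fold apart, in the same direction, between preSC 3 and the mean of preSC 1 and 2, and 4 in the other direction.

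Named genes show the size of this. Anxa1, which encodes the membrane binding protein annexin A1, was at 4.61, 4.73 and 11.62 in preSC 1, 2 and 3 and at 4.22 and 9.89 in L-Myc 1 and 2. The interferon induced membrane protein gene Ifitm3 was at 3.99, 4.33 and 9.79 in preSC and at 4.07 and 9.75 in L-Myc. The transcription factor gene Maf ran the other way, at 7.98, 8.63 and 3.85 in preSC and 10.59 and 5.89 in L-Myc, as did the myelin protein gene Pmp22, at 10.10, 9.88 and 4.60 and then 9.67 and 5.50. In all 4 genes preSC 3 and L-Myc 2 lay on one side of the other 3 arrays, so the groups overlapped. In Maf the arrays on each side were less alike, and on each side L-Myc was above preSC. A few genes set L-Myc 2 apart alone: the G protein gene Gnai1 was at 4.62, 4.52 and 4.53 in preSC, at 4.40 in L-Myc 1 and at 9.10 in L-Myc 2, with 8.93 in C-Myc 2. These genes were picked for such differences and are a description, with no test. Differences are therefore also given below within 2 pairs of alike arrays, L-Myc 1 minus the mean of preSC 1 and 2, and L-Myc 2 minus preSC 3; the pairs were set after the values were seen.

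**Figure D1:**
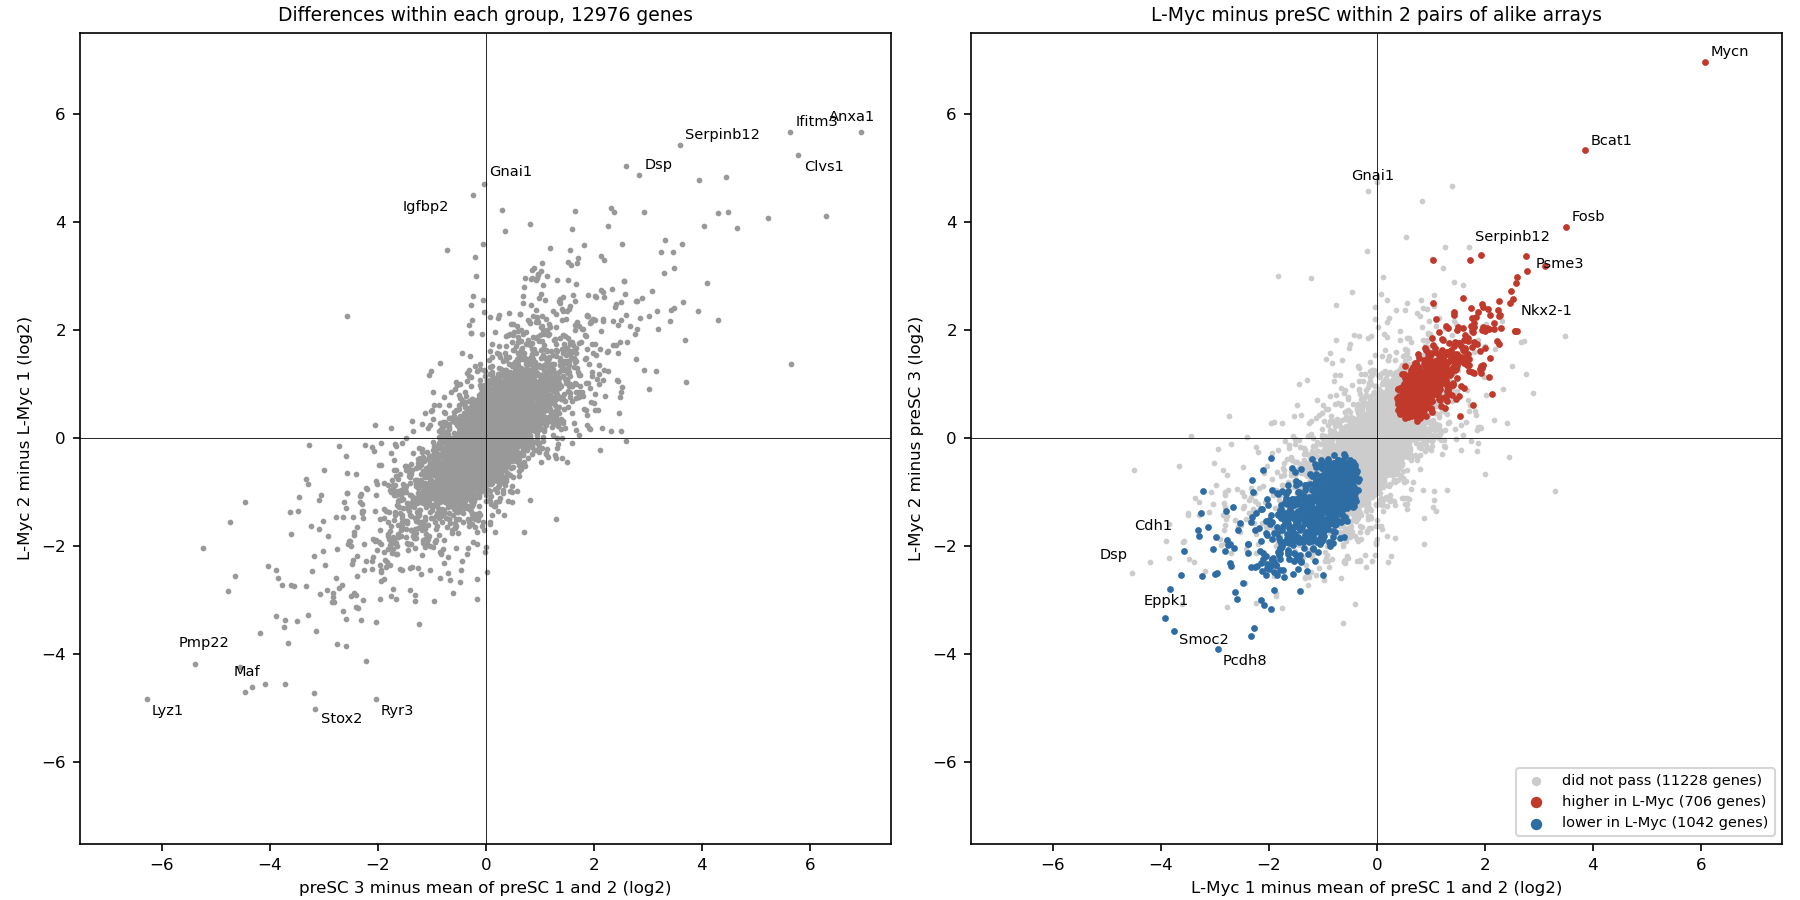
Left, for each of 12976 tested genes, preSC 3 minus the mean of preSC 1 and 2 (horizontal, log2) against L-Myc 2 minus L-Myc 1 (vertical, log2): points stretch from lower left to upper right, with Anxa1, Ifitm3 and Clvs1 at the upper end and Maf and Pmp22 at the lower. Right, L-Myc minus preSC in the 2 pairs of alike arrays (log2): the 706 genes called higher (red) lie in the upper right, the 1042 called lower (blue) in the lower left, and genes that did not pass are grey.

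Control probes also separated the groups. The 18S ribosomal RNA control (3′ probe set) was at 13.74, 12.58 and 12.68 in preSC and at 8.26 and 9.27 in L-Myc, and the spiked Dap control (5′ probe set) at 6.75, 7.73 and 7.02 against 9.53 and 9.61. The hybridisation control BioB (3′) lay between 8.23 and 8.52 in all 5. The 3′ probe set of Dap differed by 0.54 between the group means, against 2.40 for its 5′ probe set. Dap is spiked and does not come from the cells. In the C-Myc and N-Myc arrays the 18S control (3′) was at 8.22 to 9.11 and Dap (5′) at 9.67 to 9.97, close to L-Myc. These controls thus split preSC from all transduced arrays, and the comparison of L-Myc with preSC lies across that split. The preSC and L-Myc arrays are both labelled as polyA RNA although the protocol describes total RNA. For the 18S control, whether the transduction or the preparation of the RNA sets its values cannot be told apart. The part of these controls in the gene results was not tested. The list mean of markers of pulmonary neuroendocrine cells was 10.09 to 10.2 in preSC and 10.21 and 10.13 in L-Myc. Single markers were less steady than this mean, and in the main fit 3 of the 10 on the array rose and 2 fell. None (0) of the 10 lay under the 40th percentile of its array in all 5. Of the markers of other cells, 6 of 10 for fibroblasts (Col1a1, Col1a2, Col3a1, Lum, Postn and Tcf21), 6 of 8 for endothelium, 5 of 8 for leukocytes and 5 of 11 for club, alveolar and ciliated cells did lie under it in all 5. Their list means ran from 4.98 to 5.63 in preSC and from 4.86 to 5.68 in L-Myc. The other members of these lists were not under the 40th percentile in all 5 arrays, and some were bright. The endothelial marker Vwf was at 10.57, 10.60 and 10.66 in preSC and at 6.95 and 8.14 in L-Myc. In such bulk samples fewer cells of a type and less RNA per cell cannot be told apart.

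The probe sets of Mycl, the transduced gene, differed among themselves. Its second-brightest probe set (1422087_at) was at 5.74, 5.61 and 5.39 in preSC and at 11.79 and 12.74 in L-Myc, a rise of 6.69 (SE 0.51, limma adjusted p = 0.000345 over probe sets). The dimmest (1422088_at) was at 4.70, 4.75 and 4.66 and then 6.74 and 7.24, but the C-Myc arrays (6.09 and 7.15) and N-Myc arrays (6.41 and 6.43) were also above preSC there. The brightest (1434777_at) was at 8.65, 9.02 and 9.03 in preSC and at 8.56 and 8.78 in L-Myc, a difference of -0.23 (SE 0.36). At 1422087_at the C-Myc and N-Myc arrays lay between 6.68 and 8.52, under both L-Myc arrays and above all 3 preSC arrays, with C-Myc 2 the highest of them.

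Mycn was high in every transduced array. Its brightest probe set (1425923_at) was at 6.88, 6.79 and 6.37 in preSC and at 12.92 and 13.33 in L-Myc, a rise of 6.44 (SE 0.26, limma adjusted p = 0.000273). It was at 13.54 and 13.08 in the arrays labelled C-Myc and at 11.64 and 11.07 in those labelled N-Myc, where it was lowest among the transduced arrays. The other 2 probe sets of Mycn did not rise, at 8.50, 8.52 and 7.74 against 8.02 and 6.86 for 1417155_at, and 6.05, 6.39 and 6.19 against 6.24 and 6.08 for 1425922_a_at. The last was at 9.05 and 8.46 in the arrays labelled N-Myc and at 5.83 and 5.79 in those labelled C-Myc. Where these probe sets lie in the transcripts or in a vector was not analysed here. Myc itself was at 6.50, 6.82 and 8.13 in preSC and at 5.63 and 7.29 in L-Myc, against 10.68 to 11.96 in the arrays labelled C-Myc and N-Myc. Max, the dimer partner, was at 7.84, 7.65 and 7.85 and at 7.40 and 7.45, a difference of -0.36 (SE 0.19, limma adjusted p = 0.248). In the MYC network list, 3 of 26 tested members rose and 0 fell: Mycn, the helicase gene Ruvbl2 (1.16, SE 0.18, adjusted p = 0.00937) and the actin-like gene Actl6a (0.62, SE 0.15, adjusted p = 0.0372), both of which encode MYC cofactors.

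**Figure D2:**
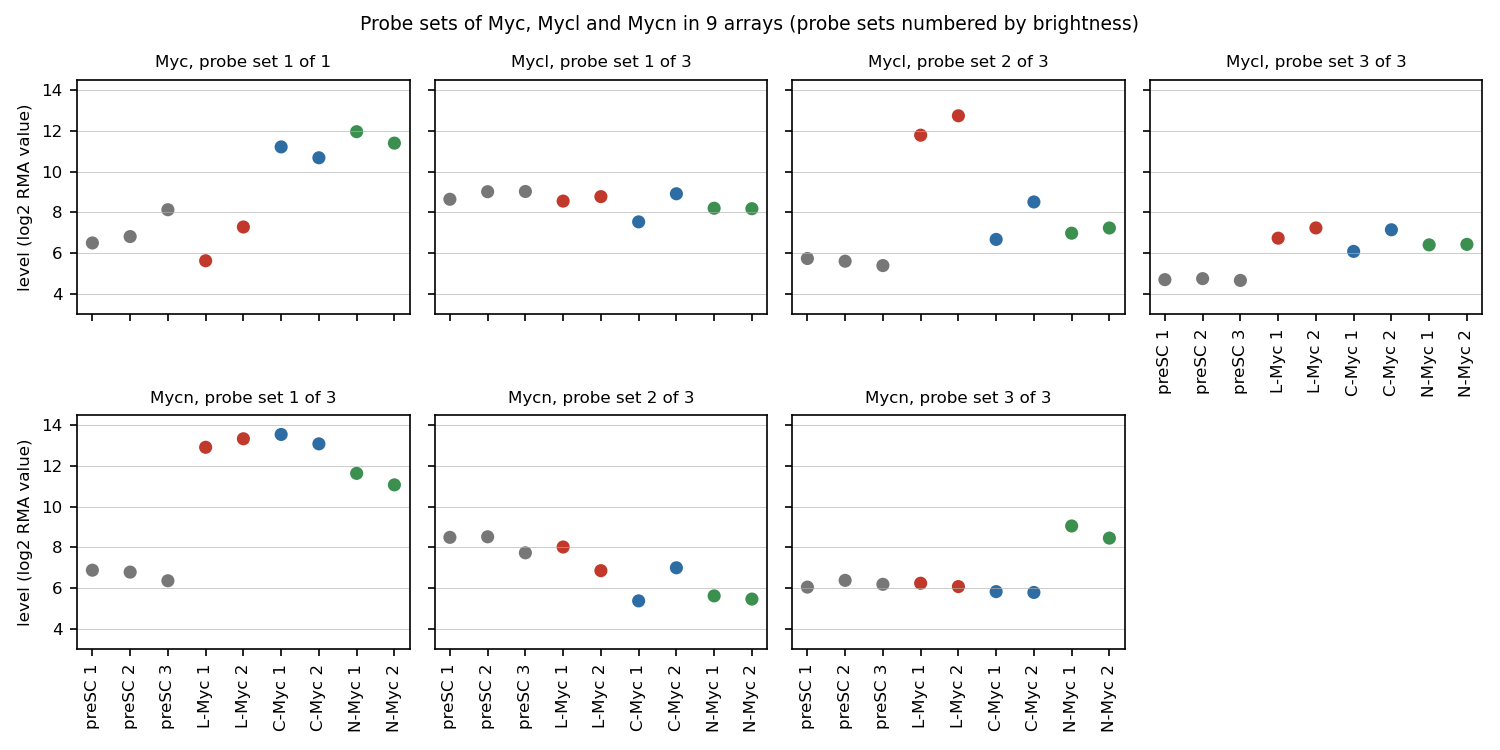
Log2 intensity (vertical) in each of the 9 arrays (horizontal, coloured by group) for the 7 probe sets of Myc, Mycl and Mycn. The L-Myc arrays stand highest at the second-brightest probe set of Mycl, while at its dimmest C-Myc 2 lies between them, and all transduced arrays stand above preSC at the brightest probe set of Mycn.

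In all, 1748 of 12976 genes (13.5%) passed, 706 higher (5.44%) and 1042 lower (8.03%) in L-Myc cells. The counts given for gene lists are to be read against these shares. A list near them changed no more often than genes at large. The median change over all tested genes was -0.0414, and the median size of change among those that passed was 0.944. At least 2-fold changes made up 278 of the higher and 497 of the lower genes, and at least 4-fold changes 30 and 55. The groups did not overlap at 6424 genes (49.5%), 2853 of them higher (22%) and 3571 lower (27.5%), and all 1748 were among these. Leaving out an array lowered the count, to 712 for preSC 1, 600 for preSC 2, 1139 for preSC 3, 905 for L-Myc 1 and 605 for L-Myc 2, and 337 genes (139 higher and 198 lower) passed in all 5 of these fits. With preSC 1 and 2 averaged to 1 sample 671 passed. All 671 were among the 1748, so the rest of the calls did not hold when these close arrays counted as 1. When each array was centred on the median of the tested genes, the share of calls that were higher went from 40.4% to 62%, so the balance of rises and falls depends on the scaling. A change of over 2-fold in both array pairs was seen in 267 genes upward (2.06%) and 560 downward (4.32%).

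Besides Mycn, the large rises were led by Bcat1, an enzyme that moves amino groups from branched-chain amino acids and a known MYC target in several cancers. It was at 5.20, 5.33 and 3.79 in preSC and at 9.12 in both L-Myc arrays, a rise of 4.35 (SE 0.54, limma adjusted p = 0.00602). The AP-1 gene Fosb rose from 4.23, 4.16 and 4.16 to 7.70 and 8.07, and Fos from 7.73, 7.74 and 8.13 to 10.85 and 11.32, by 3.70 (SE 0.17) and 3.22 (SE 0.19). In all 3 genes each L-Myc array stood far above each preSC array. Rhob, a small GTPase gene, rose from 8.32, 8.40 and 8.46 to 10.84 and 10.96. Smn1, whose protein assembles spliceosomal particles, rose from 6.93, 6.81 and 6.85 to 9.36 and 9.57. Nabp2, which encodes a single-stranded DNA binding protein of DNA repair, rose from 7.91, 7.65 and 7.44 to 10.04 and 9.98. The ATP-gated channel gene P2rx3 rose by 2.45 (SE 0.35), Glipr2 by 2.65 (SE 0.36) and Pdzrn4 by 2.22 (SE 0.17). Among the smallest adjusted p-values on the higher side were also the ubiquitin conjugating enzyme gene Ube2n (1.96, adjusted p = 0.00201), the cobalamin enzyme gene Mmab (1.63, adjusted p = 0.00195) and the immunophilin gene Fkbp8 (1.76, adjusted p = 0.00275). Each gene of this paragraph passed in all 5 fits that left out 1 of the 5 arrays.

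Among the large falls, Smoc2, which encodes a calcium binding matrix protein, went from 8.82, 8.62 and 8.67 to 4.97 and 5.11, a difference of -3.67 (SE 0.43, limma adjusted p = 0.00563). The protocadherin gene Pcdh8 fell from 10.16, 10.28 and 9.29 to 7.27 and 5.39, and epiplakin (Eppk1), a linker of keratin filaments, from 8.72, 8.67 and 9.57 to 4.77 and 6.24. The von Willebrand factor gene Vwf fell from 10.57, 10.60 and 10.66 to 6.95 and 8.14; it is a marker of endothelium, of which 6 of the 8 markers on the array were under the 40th percentile in all 5 arrays. The matrix gene Tnr (tenascin R) fell from 8.53, 9.05 and 9.11 to 6.46 and 5.45. The progesterone receptor gene Pgr fell from 8.72, 8.59 and 8.78 to 5.66 and 6.27, and Frem2, a basement membrane gene, from 7.86, 8.02 and 7.98 to 4.91 and 5.93. In each of these genes both L-Myc arrays were under all preSC arrays, and in all but Smoc2 the L-Myc arrays differed from each other by more than the range of the preSC arrays. Prr15 fell by 2.62 (SE 0.40). Falls with little spread in either group were those of Cdc42bpg, a kinase gene of the cytoskeleton, from 9.58, 9.56 and 9.87 to 7.65 and 7.65; of the clock gene Per3, from 8.88, 8.81 and 8.90 to 6.75 and 6.65; of the copper pump gene Atp7b (-2.31, SE 0.19), the planar polarity gene Prickle2 (-2.08, SE 0.18) and the receptor phosphatase gene Ptprf (-1.61, SE 0.14). These genes too passed in all 5 fits that left out 1 array.

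**Figure D3:**
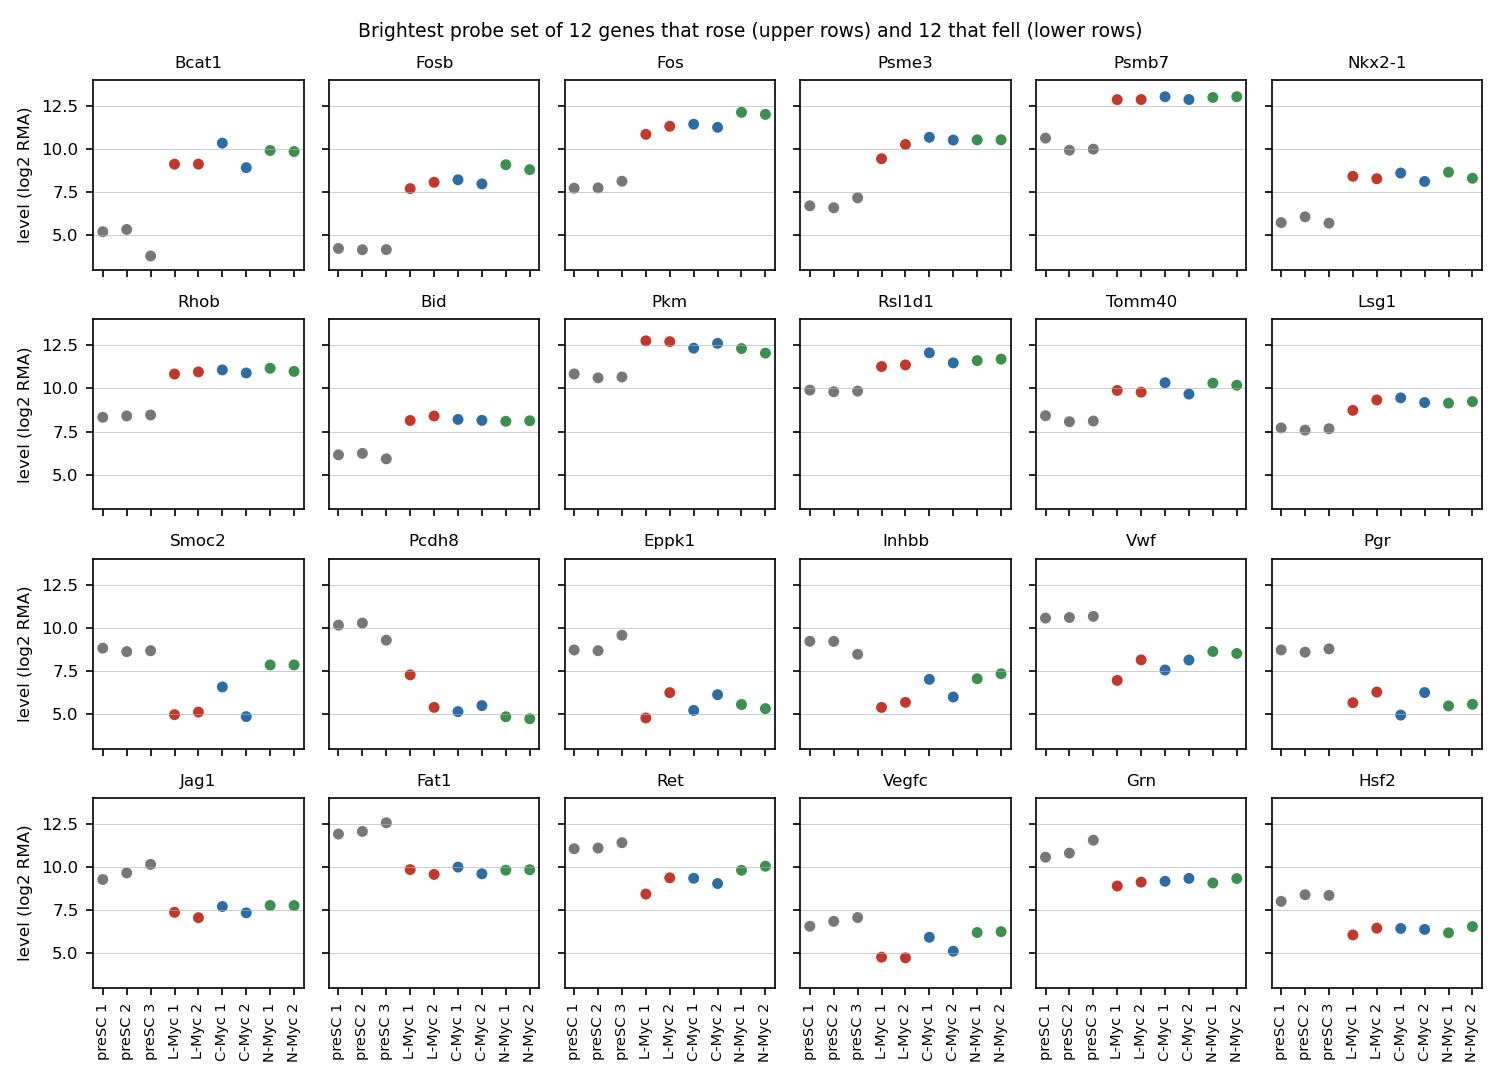
Log2 intensity (vertical) of 24 genes in each of the 9 arrays (horizontal, coloured by group), 12 that rose in the upper rows and 12 that fell in the lower rows. In each panel both L-Myc points lie on one side of all 3 preSC points.

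Of genes that build ribosomes, more rose than fell. Over the lists of small nucleolar ribonucleoproteins, the small subunit processome and large subunit assembly, 19 of 113 tested members rose (16.8%, against 5.44% of all genes) and 2 fell, with a median change of 0.47 against -0.0414 over all genes. Within the array pairs 87 of the 113 were higher in both pairs and 14 lower in both, where 35.6% of all genes were higher and 43.8% lower in both. Of large subunit assembly, 7 of 45 rose and 0 fell. Rsl1d1, a nucleolar protein gene, rose from 9.90, 9.81 and 9.85 to 11.27 and 11.36 (1.46, SE 0.18, adjusted p = 0.006), and the export GTPase gene Lsg1 from 7.71, 7.58 and 7.66 to 8.73 and 9.33. Pes1, which encodes a factor needed for 28S rRNA processing, was at 8.79, 8.87 and 8.79 and then at 9.74 and 10.07. Of the small subunit processome, 6 of 46 rose and 1 fell. Nol11 was at 8.21, 8.41 and 9.03 against 9.47 and 10.14, Utp4 at 9.49, 9.53 and 9.40 against 10.18 and 10.59, Wdr43 at 8.66, 8.55 and 8.63 against 9.24 and 9.89, and Pno1 at 9.30, 9.17 and 9.07 against 9.99 and 10.28. These 5 genes, from Pes1 on, are those whose promoter stretches are printed above, and their adjusted p-values lay close to the threshold (0.0289 to 0.0477). Of the snoRNP list, 6 of 22 rose, among them Nhp2 (1.53, SE 0.27) and Nolc1 (0.93, SE 0.16), and 1 fell: Naf1, which loads H/ACA particles early in their assembly, went from 11.62, 11.72 and 11.82 to 10.08 and 10.68. Of RNA polymerase I and III genes, 5 of 35 rose and 0 fell. With preSC 1 and 2 averaged to 1 sample, 3 of 22 snoRNP, 0 of 46 small subunit and 3 of 45 large subunit genes rose. The median changes in that fit were 0.61, 0.33 and 0.539. Only 2 of the 19 rises in the 3 assembly lists passed in all 5 fits that left out an array, which gave 0 to 3 rises for snoRNPs, 0 to 3 for the small subunit and 2 to 10 for the large.

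Of mitochondrial import and chaperone genes, 9 of 40 rose and 0 fell (median 0.23). Leaving out an array gave 1 to 5 rises, with 1 and a median of 0.0976 without L-Myc 2. The import channel gene Tomm40 rose from 8.42, 8.07 and 8.11 to 9.88 and 9.78, the chaperone gene Hspa9 from 10.99, 11.01 and 10.75 to 12.10 and 12.12, and Timm9 by 1.29 (SE 0.20). Of mitochondrial ribosomal proteins 7 of 75 rose (0 to 6 when an array was left out) and 1 fell, among them Mrpl50 (1.21) on the higher and Mrpl44 (-0.74) on the lower side. Of the cytosolic chaperonin subunits and their helpers, 4 of 16 rose and 0 fell: Tcp1 (0.60), Cct5 (0.61), Cct6a (0.55) and Cct8 (0.83). Of heat shock genes 3 of 20 rose and 2 fell; the HSP90 partners Stip1 (1.04, SE 0.16) and Fkbp4 (1.60, SE 0.21) rose, and Hsf2, a heat shock transcription factor gene, fell from 8.02, 8.41 and 8.37 to 6.08 and 6.47. Stip1, Fkbp4, Tomm40 and Hsf2 passed in all 5 fits that left out an array.

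Of 42 tested proteasome genes 5 rose and 1 fell (2 to 4 rises when an array was left out). The core subunit gene Psmb7 rose from 10.63, 9.93 and 9.99 to 12.86 and 12.87 (2.68, SE 0.22, adjusted p = 0.00221), and the nuclear activator gene Psme3 from 6.70, 6.59 and 7.17 to 9.43 and 10.26; its second probe set rose by only 0.73. The regulatory subunit genes Psmd8 (0.59) and Psmd13 (0.49) changed less. Of 13 tested genes of the immunoproteasome and antigen presentation 0 rose and 2 fell, Tap2 (-1.23, SE 0.33) and Tapbp (-1.52, SE 0.37), and 12 of the 13 were lower in both array pairs, against 43.8% of all genes. With the second-brightest probe sets, 0 of 8 tested fell and their median was 0.152; that of Tapbp went the other way (0.18). Of 28 interferon response genes 0 rose and 2 fell (7.14%, near the 8.03% of all genes), and 0 fell with median centring.

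Of 60 tested splicing genes 13 rose and 2 fell. None (0) of the 13 rises passed in all 5 fits that left out an array, which gave 0 to 5 rises, with 0 without L-Myc 2, and 2 rose with the replicate block. Srsf2, an SR protein gene, went from 12.11, 12.12 and 12.07 to 12.77 and 12.80, and U2af2, which recognises the polypyrimidine tract, from 10.32, 10.41 and 10.26 to 11.10 and 11.10. Snrpb2 (0.84) and the arginine methyltransferase gene Prmt1 (0.79) rose, and Mbnl2, a regulator of alternative splicing in muscle and nerve, fell (-0.90, SE 0.11). Of the 26 noncoding RNAs tested, 2 rose, the snoRNA hosts Snhg1 (0.72, SE 0.14) and Snhg6 (1.22, SE 0.20).

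In the main fit, cell cycle lists stayed near the shares of all genes (5.44% higher and 8.03% lower). Of DNA replication genes 3 of 50 rose and 2 fell, and of mitosis genes 4 of 56 rose and 2 fell. With the second-brightest probe sets 10 of 34 DNA replication genes rose and 0 fell, and 8 of 37 mitosis genes rose and 3 fell. In that fit 1171 of all 6384 genes rose and 644 fell. With median centring 7 DNA replication genes rose and 1 fell. Fzr1, an activator of the anaphase promoting complex, rose from 8.10, 7.96 and 8.02 to 9.33 and 9.23, while the other activator gene Cdc20 was at 13.21, 13.13 and 13.03 and then 12.57 and 12.22; its second probe set differed by 0.05. Mki67, the proliferation marker, was at 13.07, 13.19 and 12.86 and at 13.10 and 12.54 (limma adjusted p = 0.476). Of the G1 and E2F list 2 of 27 rose and 3 fell, and 4 rose and 2 fell when arrays were centred on their medians. The kinase inhibitor gene Cdkn2b fell from 7.14, 7.05 and 7.65 to 5.52 and 6.02, E2f1 rose by 0.87 (SE 0.14), and the repressor gene E2f7 fell (-1.10, SE 0.21).

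Of glycolysis and pentose phosphate genes 5 of 30 rose and 4 fell. Pkm, which encodes the pyruvate kinase of the last step, rose from 10.84, 10.61 and 10.66 to 12.76 and 12.71, and the phosphofructokinase gene Pfkl from 7.43, 6.87 and 7.28 to 8.77 and 9.09. The glucose transporter gene Slc2a1 fell from 9.65, 9.63 and 10.18 to 7.99 and 8.72, and Aldoc fell too (-1.11). Of serine and one-carbon genes 4 of 13 rose and 0 fell, with Psat1 at 11.28, 11.14 and 10.63 against 12.20 and 12.15, Shmt1 up by 1.47 (SE 0.38) and Ahcy up by 0.97 (SE 0.14). The whole list of polyamine, serine, glutamine and proline genes had 4 rises among 33 tested. It had 2 with preSC 1 and 2 averaged to 1 sample and 8 with the mean of probe sets. The transsulfuration gene Cth rose by 1.43 (SE 0.35). Of 18 amino acid transporters 0 rose and 6 fell (33.3%, against 8.03% of all genes), led by Slc43a2 (-1.40), Slc6a6 (-1.04) and Slc36a1 (-0.98). Their whole list of 37 also holds branched-chain catabolism genes, and 2 rose and 6 fell in it. This depended on the processing: 3 rose and 2 fell with the mean of probe sets. With preSC 1 and 2 averaged to 1 sample, 1 rose and 1 fell. Odc1, the rate-limiting enzyme of polyamine synthesis and a textbook MYC target, was at 11.02, 10.94 and 10.84 and at 11.49 and 11.75, and its difference of 0.69 (SE 0.19) missed the threshold (adjusted p = 0.0505). Of 43 lysosome genes 0 rose and 7 fell, whereas with the second-brightest probe sets 4 rose and 1 fell, and leaving out an array gave 1 to 6 falls. Grn (progranulin) fell from 10.58, 10.82 and 11.57 to 8.92 and 9.14, the cholesterol carrier gene Npc1 from 8.59, 8.59 and 8.63 to 7.40 and 6.82, and Gaa (-1.09), Tpp1 (-1.02) and Lamp1 (-0.76) fell less.

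**Figure D4:**
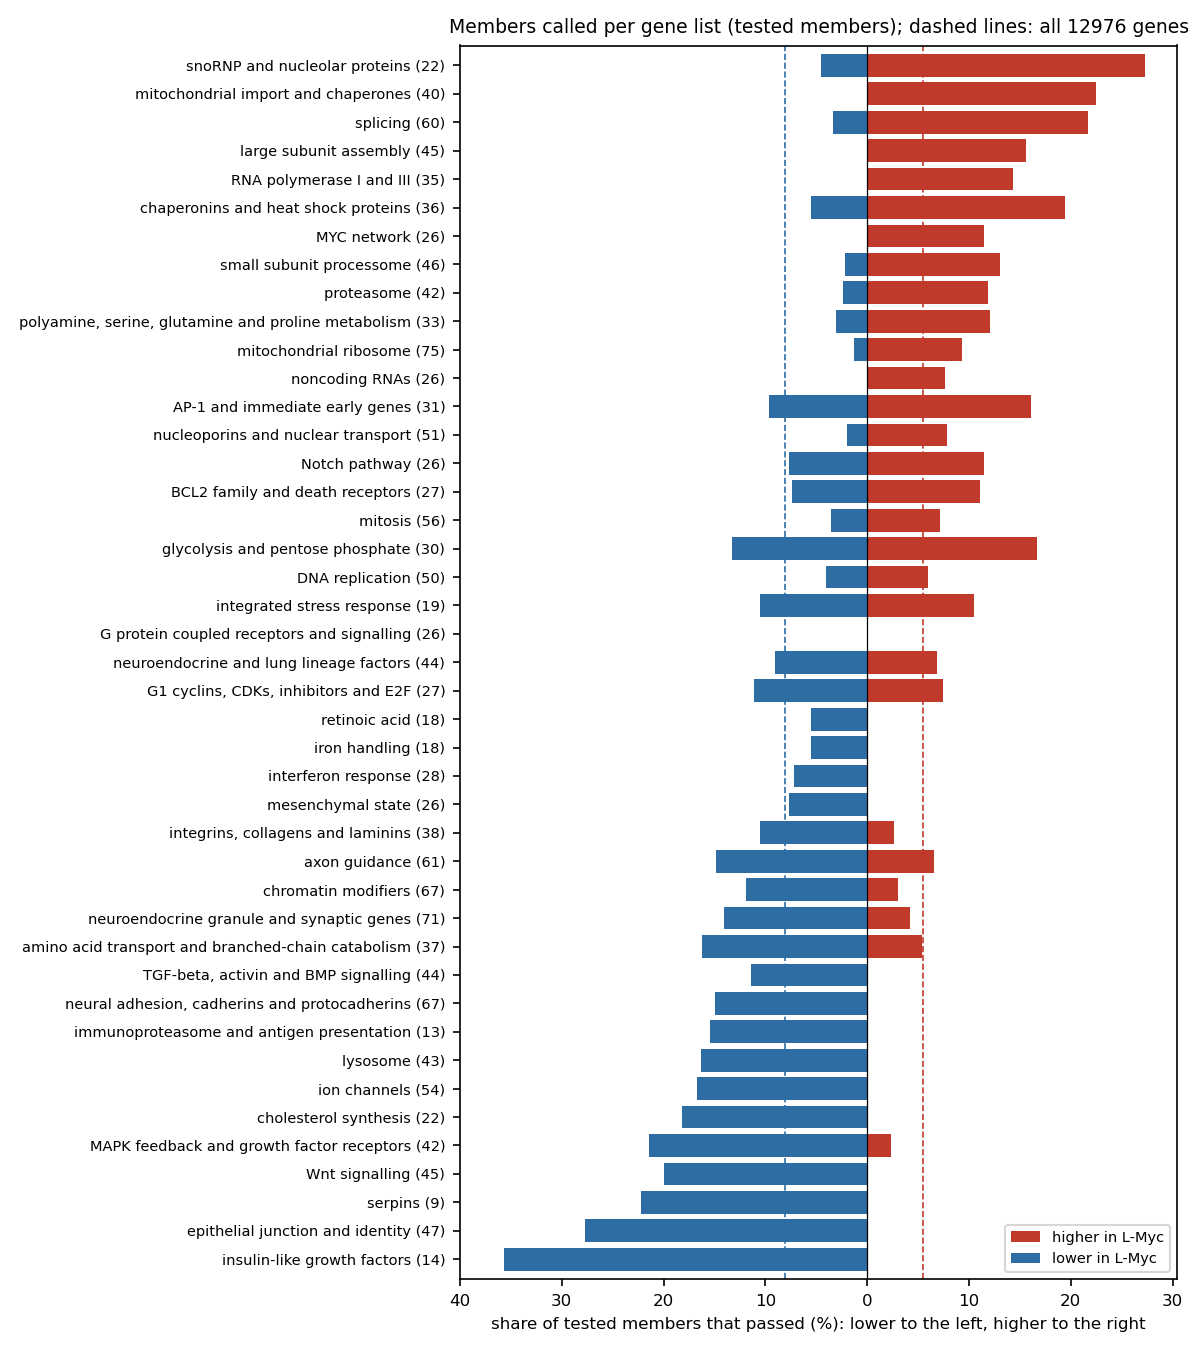
Share of tested members that passed in each of 43 gene lists (horizontal, percent; lower to the left, higher to the right), with dashed lines at the shares over all genes, 8.03% lower and 5.44% higher. Ribosome assembly, mitochondrial import and splicing lists reach beyond the line on the higher side, and the epithelial and insulin-like growth factor lists beyond that on the lower side.

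Immediate early genes, which growth factor and stress signals switch on within minutes, gave both directions. Of 10 AP-1 genes 3 rose and 1 fell: besides Fos and Fosb, Junb rose from 6.96, 6.68 and 6.99 to 7.80 and 8.25. Egr1 was at 10.18, 10.06 and 11.64 and at 12.20 and 12.78 (1.86, SE 0.46, adjusted p = 0.0379), and it passed in 1 of the 5 fits that left out an array. Of 27 receptors and ligands of growth factors 0 rose and 6 fell, 15 were lower and 7 higher in both array pairs, and the second-brightest probe sets of the 23 with one had a median change of 0.0223. The lymphatic growth factor gene Vegfc fell from 6.58, 6.86 and 7.09 to 4.79 and 4.75. Of the MAPK feedback genes 1 of 15 rose, the phosphatase gene Dusp1 (0.92, SE 0.23), and 3 fell.

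Of 14 tested genes of insulin-like growth factors 0 rose and 5 fell (median -0.62), and leaving out an array gave 1 to 4 falls. The binding protein genes Igfbp7 and Igfbp5 were at 8.74, 9.10 and 9.42 against 5.69 and 6.86, and at 13.37, 13.23 and 14.16 against 11.77 and 12.03. The receptor gene Igf1r fell from 9.05, 9.24 and 9.33 to 7.68 and 6.91, Igf2r from 9.99, 9.88 and 10.01 to 8.87 and 8.74, and the adaptor gene Irs2 fell as well (-0.96, SE 0.16). Both L-Myc arrays were under every preSC array in all 5 of these genes. Of 44 tested TGF-beta, activin and BMP genes 0 rose and 5 fell (11.4%, against 8.03% of all genes). Among the falls was the activin receptor gene Acvr1b (9.91, 9.87 and 10.21 against 8.58 and 8.65). Another was Id4, a target of BMP signals (13.25, 13.47 and 13.62 against 12.02 and 12.30). Of 45 Wnt genes 0 rose and 9 fell (20%, against 8.03% of all genes), with 1 to 5 falls when an array was left out. With the second-brightest probe sets 3 of 23 Wnt genes rose and 6 fell, and with the mean of probe sets 1 rose and 4 fell. The receptor gene Fzd5 went from 8.93, 9.05 and 8.97 to 7.18 and 6.81. Ror2 (-0.96), the receptor antagonist gene Kremen1 (-1.11) and Znrf3 (-0.89), a ubiquitin ligase that removes Wnt receptors, fell less. Of 26 Notch pathway genes 3 rose (11.5%) and 2 fell (7.69%, near the 8.03% of all genes). The ligand gene Jag1 fell from 9.29, 9.67 and 10.17 to 7.39 and 7.08, and the glycosyltransferase genes Lfng (1.49, SE 0.21) and Mfng (0.94, SE 0.18), whose products tune Notch receptors, rose.

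Of 44 lineage factors of the lung and of neuroendocrine cells 3 rose (6.82%) and 4 fell (9.09%), shares near those of all genes (5.44% and 8.03%). Nkx2-1, the lung and thyroid homeobox gene, rose from 5.73, 6.06 and 5.70 to 8.41 and 8.27 (2.51, SE 0.21, adjusted p = 0.00221). Lmo3 rose from 4.78, 4.84 and 4.53 to 6.47 and 5.98, and Foxp4 by 1.11 (SE 0.24). The forkhead genes Foxa1 (13.35, 13.36 and 13.68 against 12.60 and 12.62) and Foxa2 (12.79, 12.80 and 13.00 against 11.82 and 11.83) fell. Insm1, a neuroendocrine transcription factor gene, was at 11.12, 10.90 and 11.67 and at 11.24 and 11.99 and did not pass (0.39, SE 0.30). Of the 71 tested granule and synaptic genes 3 rose and 10 fell (3 to 8 falls when an array was left out). Nnat, an imprinted gene of neuroendocrine cells, rose from 12.71, 12.47 and 12.39 to 14.33 and 14.46. The other 2 that rose were Uchl1 (1.16, SE 0.18) and Syp (0.99, SE 0.18; its second probe set differed by -0.02). Among the falls were the calcitonin-related peptide gene Calcb (-1.39, SE 0.23), the active zone gene Pclo (-1.94, SE 0.44) and Synpr (-1.75, SE 0.39).

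Ion channel and neural adhesion genes that passed in the main fit were all lower. Of 54 ion channels 0 rose and 9 fell (16.7%, against 8.03% of all genes), with 3 to 7 falls when an array was left out. With the second-brightest probe sets 3 of 30 ion channels rose and 4 fell, and with median centring 2 rose and 6 fell. The potassium channel gene Kcnh2 fell from 9.71, 9.50 and 9.43 to 8.57 and 8.15, and Kcnk1 (-1.03), Kcnq3 (-1.18) and the neuronal calcium channel genes Cacna1a (-1.15) and Cacna1b (-0.81) fell. Of 67 genes of neural adhesion, cadherins and protocadherins 0 rose and 10 fell (14.9%), 6 of them in all 5 fits that left out an array. With the second-brightest probe sets 1 of 37 rose and 5 fell, and with median centring 1 rose and 9 fell. Besides Pcdh8, the giant cadherin gene Fat1 fell from 11.93, 12.08 and 12.58 to 9.87 and 9.59, Nrcam from 10.34, 10.31 and 10.26 to 9.13 and 8.36, and Tenm4 from 10.01, 10.34 and 10.12 to 8.86 and 8.96. Cdh13 fell by 1.23 (SE 0.24). Of 61 axon guidance genes 4 rose and 9 fell; the secreted semaphorin gene Sema3a was at 5.89, 5.79 and 5.43 and at 8.39 and 7.42.

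The epithelial list held the largest number of falls among the 43 lists. Of 47 tested members of the epithelial junction and identity list 13 fell (27.7%, against 8.03% of all genes) and 0 rose, with a median of -1.35; the 2 arrays gave medians of -1.97 for L-Myc 1 and -0.599 for L-Myc 2 against the mean of preSC. Within pairs of alike arrays 44 of the 47 were lower in both (43.8% of all genes were), with medians of -1.74 and -1.08, and 27 were lower with no overlap between the groups (27.5% of all genes were). Leaving out an array gave 5 to 23 falls, the highest without L-Myc 2. With preSC 1 and 2 averaged to 1 sample 6 members fell, and the list median was -1.47. E-cadherin (Cdh1), the core of the adherens junction, fell from 12.62, 12.72 and 13.12 to 9.38 and 11.31 (-2.47, SE 0.50, adjusted p = 0.0215). The splicing factor gene Esrp1, which sets epithelial isoforms, went from 11.27, 11.37 and 11.75 to 8.06 and 10.37. In both genes L-Myc 1 was the lower array by over 1.9, and each passed in 2 of the 5 fits that left out an array. The protease inhibitor gene Spint2 fell from 12.58, 12.61 and 12.95 to 11.11 and 11.56, the tricellular junction gene Marveld2 from 8.80, 8.79 and 8.99 to 7.26 and 7.76, and Ovol2, which represses the mesenchymal programme, from 7.48, 7.71 and 7.34 to 5.57 and 6.21. With Eppk1, these last 3 are the 4 members that passed in all 5 such fits. The other members that fell were Spint1 (-1.99), Cdcp1 (-1.94), Ppl (-1.71), Grhl1 (-1.58), Pkp3 (-1.37), Evpl (-0.89) and Tjp1 (-0.68).

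Several bright epithelial members missed the threshold. Epcam was at 12.88, 13.03 and 13.80 in preSC and at 10.13 and 12.59 in L-Myc (-1.88, SE 0.69, adjusted p = 0.116), and the keratin gene Krt8 at 12.74, 12.72 and 13.59 and at 9.37 and 12.48. Cldn7 was at 10.68, 10.89 and 12.39 and at 6.94 and 10.81, and desmoplakin (Dsp) at 9.51, 9.92 and 12.55 and at 5.18 and 10.06. In Cldn7 and Dsp the value of L-Myc 2 fell inside the range of the preSC arrays, and in all 4 the array of L-Myc 1 was the lowest of the 5. Plakoglobin (Jup), which differed by -0.01, and Cldn6, which differed by 0.11, did not follow the others. Of 26 tested mesenchymal genes 0 rose and 2 fell (2 and 1 with median centring), one of them the adhesion receptor gene Cd44, from 5.94, 5.95 and 5.13 to 4.25 and 3.95. Of integrins, collagens and laminins 1 of 38 rose (2.63%) and 4 fell (10.5%, against 8.03% of all genes). The integrin gene Itgb1 rose from 9.43, 9.78 and 9.50 to 11.30 and 11.06. The laminin receptor gene Dag1 was among the falls (-1.32, SE 0.25).

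**Figure D5:**
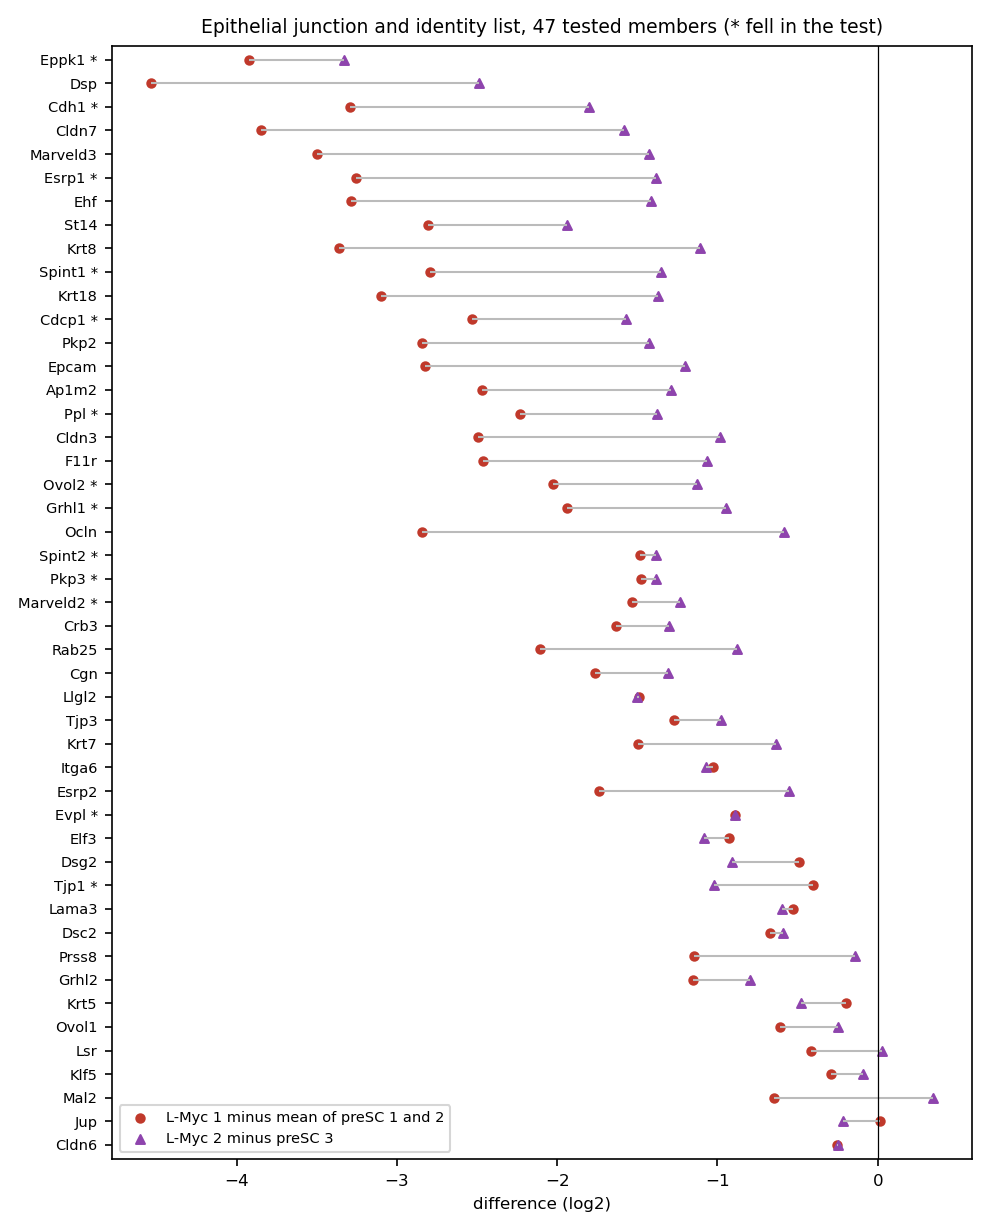
Difference between L-Myc and preSC (horizontal, log2) in each pair of alike arrays for the 47 tested members of the epithelial list (vertical, stars for the 13 that fell in the test). In 44 of the 47 both points lie left of 0, and L-Myc 1 minus preSC 1 and 2 has the lower median, -1.74 against -1.08.

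Of the BCL2 family and death receptors 3 of 27 rose (11.1%) and 2 fell (7.41%, near the 8.03% of all genes). The death agonist gene Bid rose from 6.15, 6.23 and 5.91 to 8.14 and 8.40 (2.17, SE 0.15, adjusted p = 0.00143), and its second probe set rose by 2.20. Bbc3, which encodes PUMA, rose by 0.57 (SE 0.13), while Bcl2l11, which encodes BIM, fell from 10.08, 9.84 and 10.11 to 8.82 and 8.48 and Bcl2l12 fell (-1.35, SE 0.30). Of 67 chromatin modifiers 2 rose (2.99%) and 8 fell (11.9%). The balance was 6 and 6 with median centring and 9 and 9 with the second-brightest probe sets, and leaving out an array left 1 to 4 falls. The acetyltransferase genes Crebbp (10.98, 10.93 and 10.85 against 9.72 and 9.23) and Ep300 (9.80, 9.87 and 10.07 against 9.03 and 8.90) both fell, as did the DNA methyltransferase gene Dnmt3a (-1.01, SE 0.18). The histone methyltransferase gene Suv39h2 (1.00, SE 0.15) and the deacylase gene Sirt6 (0.81, SE 0.18) rose.

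Whether these changes belong to L-Myc more than to the other MYC genes was asked by setting L-Myc against the mean of C-Myc and N-Myc. With all 9 arrays 0 of 12976 genes (0%) passed in limma, and 1985 had an unadjusted p under 0.05. Taking the second-brightest probe set of each gene, 1 gene passed, Mycl (4.91, adjusted p = 0.0433). The count turned on 1 array. Without C-Myc 2, which differed from L-Myc 2 at 41 probe sets, 1502 genes passed, 848 higher and 654 lower in L-Myc, and 95 of them had also passed in the same direction against preSC; without C-Myc 1 20 passed, and without L-Myc 2 10. The protease gene Ctsz, picked after its values were seen, was at 11.81, 11.84 and 12.27 in preSC, at 12.34 and 11.94 in L-Myc. The C-Myc arrays held it at 3.69 and 11.90, the N-Myc arrays at 4.20 and 3.97. The noncoding gene Pvt1, a neighbour of Myc, was at 5.84, 6.69 and 5.40 in preSC, 5.67 and 6.29 in L-Myc. The C-Myc arrays held it at 13.11 and 7.52, the N-Myc arrays at 13.59 and 13.63. In both genes C-Myc 2 lay with preSC and L-Myc, and C-Myc 1 lay with N-Myc. At Myc and at 1 probe set of Mycl C-Myc 2 did not lie with L-Myc. Myc was at 10.68 in C-Myc 2 against 5.63 and 7.29 in L-Myc, and Mycl (1422087_at) at 8.52 against 11.79 and 12.74. At other probe sets of Mycl and Mycn C-Myc 2 lay closer to L-Myc. Mycn (1425923_at) was at 13.08 in C-Myc 2 against 12.92 and 13.33 in L-Myc, and Mycl (1422088_at) at 7.15 against 6.74 and 7.24. The labels also give polyA RNA for the preSC and L-Myc arrays and total RNA for the C-Myc and N-Myc arrays. By these labels RNA type and transgene cannot be told apart in this comparison. The 18S and Dap controls did not follow the labels, since the C-Myc and N-Myc arrays lay close to L-Myc and away from preSC.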

How the data were processed

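Gene expression was measured on 9 Affymetrix arrays, and per the submitters' processing notes the values were made with RMA from the affy package in R 3.0.1. The deposited values are log2 intensities; the affy version and the probe annotation build are not given in the sources used here. Probe sets were named from the platform annotation: 34958 of 45101 carried 1 symbol, 932 several, and 9211 were not listed. Of the one-gene probe sets, 34741 matched RefSeq. The brightest probe set stood for a gene. Genes entered the test if they exceeded the array's 40th percentile in at least 2 of 9 arrays. Group means were fitted with limma 3.58.1 in R 4.3.3 (lmFit and eBayes) on all 9 arrays, 4 groups, with Benjamini-Hochberg adjustment over 12976 genes and a threshold of 0.05. The code was tested on simulated data with known changes. Python 3.11.15 with pandas 2.3.3 made the summaries. No column of per-sample values was left without a sample (0).

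The comparison, its gene lists and the alternatives were chosen with earlier results of these data known, so that the lists' directions are no independent evidence. The rule for named genes, of which the text gives a part and no RB family gene, takes the MYC and RB families, the 15 largest rises and falls and the 15 smallest adjusted p-values in each direction, at most 5 large changes and 2 bright members that did not pass from each list, and the 10 genes in each direction with the largest difference between the L-Myc arrays. Max, the remaining epithelial members, Ctsz, Pvt1, Insm1 and Mki67 were named beyond these after their values were seen. The numbers in the labels were checked for pairing: across genes the deviations of preSC 1 and L-Myc 1 from their group means correlated at 0.652 and those of preSC 2 and L-Myc 2 at -0.678, so that the numbers do not pair the arrays.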

Additional observations from a re-analysis of the deposited data

Results flagged for a closer look

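Probe sets that could not be given 1 gene symbol enter none of the comparisons above. Of 4896 that were bright enough to test, 1038 passed for L-Myc against preSC in limma, 347 higher and 691 lower. They were tested in 1 fit together with the probe sets that carry 1 symbol. In a separate fit of the latter alone, 5363 of 24244 passed.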

How the results depend on the processing

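The count of 1748 genes for L-Myc against preSC stayed within 1.5 times without a filter on low values (1728), with the second-brightest probe set (1815), the mean of probe sets (1739), quantile normalization (1747), median centring (1846), an intensity trend (1829) and the 5 arrays alone (1425). Like totals did not mean the same genes. The second-brightest probe sets allowed only 6384 genes to be tested, and 366 of the 1815 calls were also main calls in the same direction. With the mean of probe sets 1102 were. The share of calls that were higher was 40.4%, and 64.5%, 57.1% and 62% with the second-brightest probe set, the mean of probe sets and median centring; centring moved the median change of all genes from -0.0414 to 0.101. The count was 671 with preSC 1 and 2 averaged and 1033 with the replicate block, whose numbers do not pair the arrays. With the resemblance of the arrays as a block (preSC 1, preSC 2 and L-Myc 1 against preSC 3 and L-Myc 2), added after seeing the data, it was 5019; the block was chosen from the same values, and that count supports nothing. Leaving out 1 array gave 600 to 1139, and without an L-Myc array the lone one is assumed to vary like the other groups. For L-Myc against C-Myc and N-Myc, where the main count was 0, the second-brightest probe set gave 1 and leaving out 1 array 0 to 1502. The cause of these shifts was not tested. Of the 1748 genes that passed, 1134 had a second probe set, where 804 kept the sign of the change and 330 had the other sign. Among the genes named as changed, Mycn (-0.81), Cdc20 (0.047), Tapbp (0.18) and Syp (-0.02) had the other sign at the second-brightest probe set, as did Mycl (6.69) and Insm1 (-0.39), which did not pass at their brightest.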
